A study of Drosophila melanogaster with 58 samples.

Results

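Ebp, EbpII, EbpIII, Dup99B, Anp and Obp51a are 6 Drosophila melanogaster genes known from the ejaculatory bulb and ejaculatory duct, the last parts of the male reproductive tract. They were taken by symbol from the 11982 genes that have a probe set with 1 gene symbol. Where a gene has several probe sets the one brightest on average over the 58 arrays was to be used, but each of the 6 had 1. The RNA came from heads, and the levels are described here as a measure of male tract RNA in head samples. Whether the RNA of each gene came from the tract was not tested, and EbpIII was bright on every diet.

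Oregon R unmated adult males were kept at 25 C with 30 flies per vial, ate their diet for 7 days and were 10 days old when heads were taken. The 15 diets are compared here, and all flies shared strain, sex, age and schedule. The Normal food group, PTZ (Pentylenetetrazole, a convulsant) and each other diet had 4 arrays, except Moxifloxacin Hydrochloride with 2. The 7 other single compounds were Levetiracetam (an antiepileptic), Glucosamine Hydrochloride, Mannitol, Olmesartan Medoxonil, Moxifloxacin Hydrochloride, Gemfibrozil and Quinapril Hydrochloride. In 6 diets PTZ was combined with Levetiracetam, Glucosamine Hydrochloride, Mannitol, Olmesartan Medoxonil, Quinapril Hydrochloride or Oxaprozin, and Oxaprozin was present only in that combination. No dose is stated in the labels used here. The labels do not say that arrays of a diet came from separate cultures. The p-values set a difference between diets against the spread of arrays within diets, and that spread may be technical.

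The ejaculatory duct carries sperm and seminal fluid out of the male, and the bulb at its end adds secreted proteins and a pheromone. Ebp, also called PEB-me, is a major protein of the mating plug, and EbpII is a bulb protein encoded next to it. Dup99B is a secreted duct peptide related to the sex peptide, and Anp (andropin) is an antibacterial peptide of the duct. Obp51a belongs to the odorant-binding protein family, small secreted carriers that are not limited to the antenna. EbpIII belongs to the insect chemosensory protein family, whose members are also made outside the male tract.

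Levels are log2 values, on which 1 unit is a doubling. Values of all probe sets ran from 1.52 to 13.96. Below the lower quartile of an array, which lay between 2.54 and 2.67, a level was not told apart from that of a probe set with no target, since the files hold no test against background. Levels of different genes are not compared with each other, since each probe set has its own brightness. For each of the 58 arrays, the array it correlated best with was of the same diet. The head origin of the RNA was visible in every group: the median of 7 retina genes lay between 10.78 and 11.82 and that of 10 pan-neuronal genes between 9.23 and 10.19. Other head lists varied more between diets: the median of 9 antenna genes lay between 3.71 and 6.42 and that of 8 head fat body genes between 8.90 and 10.75. The median of 13 female reproductive genes lay between 3.19 and 3.53.

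Ebp, EbpII, Anp and Obp51a were highest on Normal food, followed by Moxifloxacin Hydrochloride and then Gemfibrozil. On most other diets they were at or near the dim end of the scale. Dup99B was dim on Normal food and brightest on Moxifloxacin Hydrochloride. EbpIII was among the brightest probe sets on every array and was lowest on Normal food. The 6 genes therefore did not move as 1 set, and their levels are given gene by gene.

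**Figure D1:**
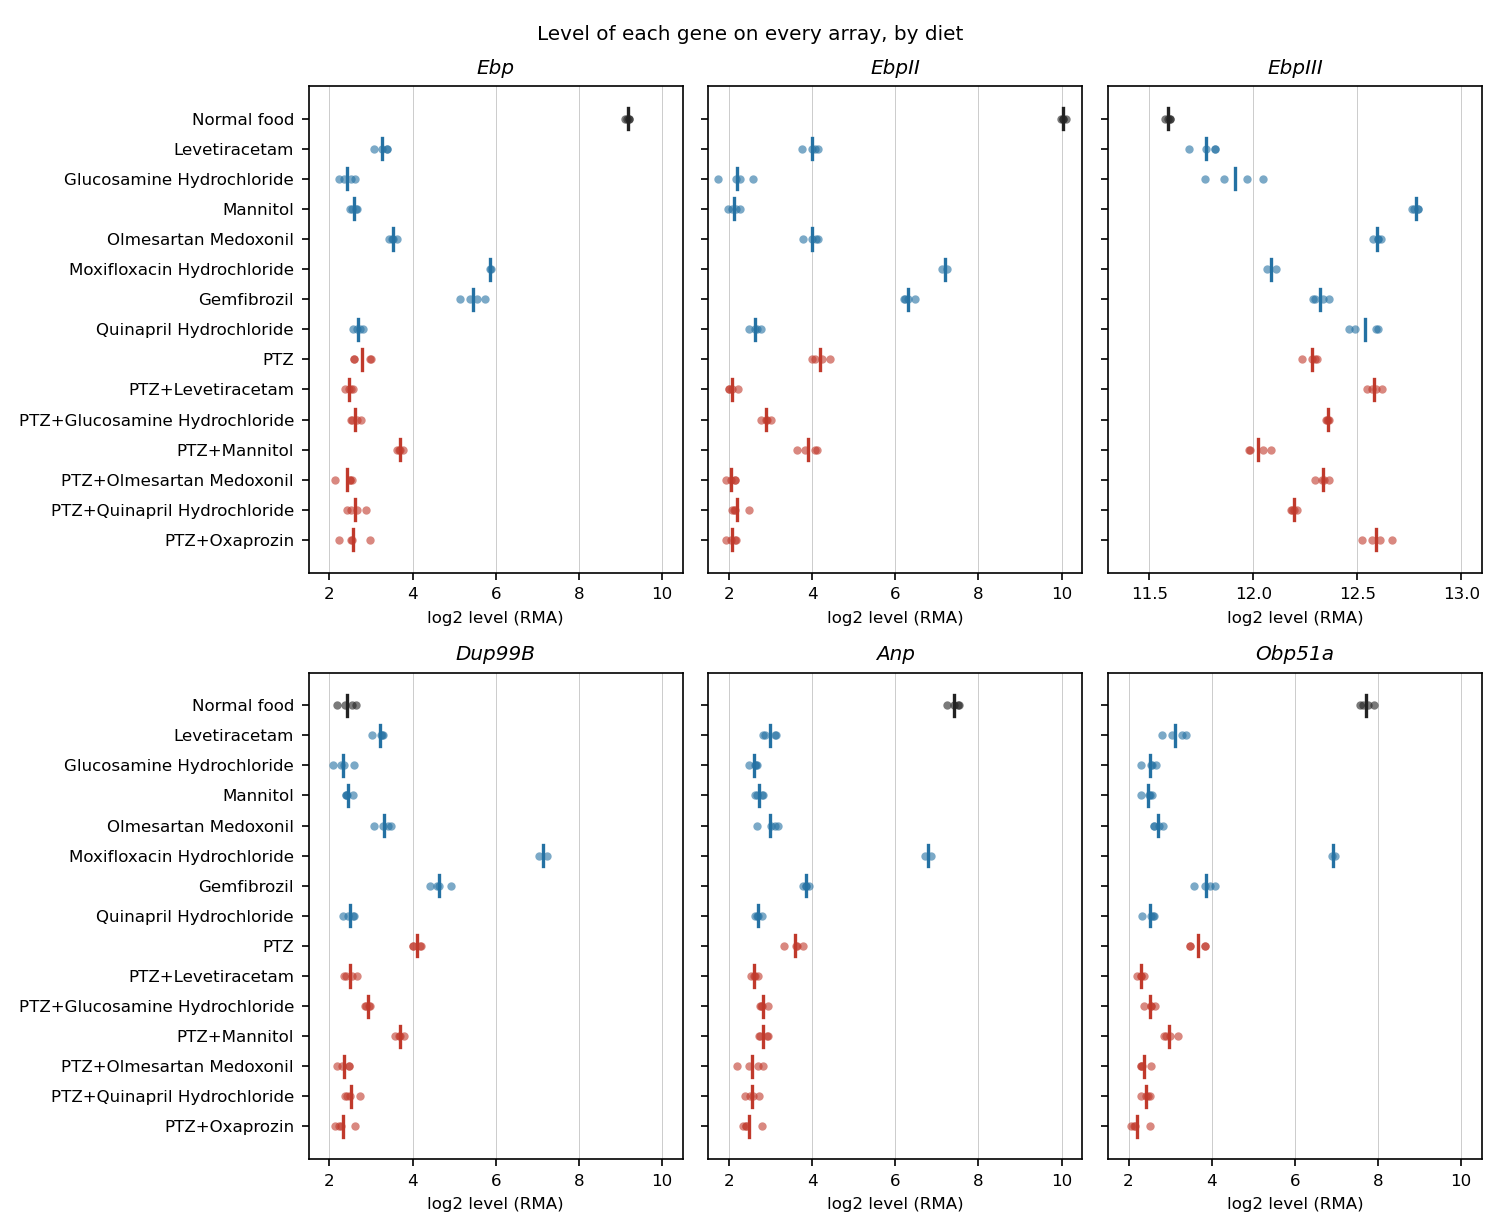
Level of each gene (log2, horizontal axis) on every array of the 15 diets (rows). Points are arrays, vertical bars are group means, black is Normal food, blue the single compounds other than PTZ, and red the diets with PTZ. The EbpIII panel has a narrower axis. Ebp lies at 9.12 to 9.21 on Normal food, while Dup99B lies at 2.19 to 2.63 there and at 7.04 and 7.23 on Moxifloxacin Hydrochloride.

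Ebp, the mating plug protein, read 9.12, 9.15, 9.21 and 9.21 on the 4 Normal food arrays. It read 5.86 and 5.88 with Moxifloxacin Hydrochloride. It read 5.13, 5.37, 5.54 and 5.74 with Gemfibrozil. These groups did not overlap with each other or with any other diet. Next came PTZ+Mannitol at 3.69 ± 0.06 (SD, n = 4) and Olmesartan Medoxonil at 3.53 ± 0.07 (SD, n = 4), whose arrays overlapped, and then Levetiracetam at 3.27 ± 0.15 (SD, n = 4). The other 9 diets, PTZ among them at 2.79 ± 0.24 (SD, n = 4), had means between 2.42 and 2.79 and neighbours that overlapped. Of the 58 arrays, 23 were below their own lower quartile for Ebp.

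EbpII, its neighbour in the genome, had the widest range of the 6 genes. It read 9.99, 10.03, 10.03 and 10.10 on Normal food. It read 7.13 and 7.24 with Moxifloxacin Hydrochloride, and 6.21, 6.23, 6.31 and 6.48 with Gemfibrozil. The PTZ arrays read 3.99, 4.08, 4.24 and 4.42. The PTZ arrays overlapped with those of Olmesartan Medoxonil (mean 4.01), and in turn Levetiracetam (3.99) and PTZ+Mannitol (3.91) overlapped with their neighbours, all clear of Gemfibrozil above. PTZ+Glucosamine Hydrochloride (2.90) followed, apart from all other diets, and then Quinapril Hydrochloride (2.64), whose arrays overlapped with those of Glucosamine Hydrochloride further down. In the other 6 diets, with means of 2.06 to 2.20, all arrays were below their lower quartile. The difference of 7.98 between the highest and the lowest group mean of EbpII was reached by 3 of the 18769 probe sets, EbpII included, and that of 6.75 for Ebp by 5. The median range over all probe sets was 0.588.

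Anp, the antibacterial peptide of the duct, read 7.25, 7.40, 7.50 and 7.53 on Normal food and 6.72 and 6.85 with Moxifloxacin Hydrochloride. It read 3.79, 3.85, 3.86 and 3.93 with Gemfibrozil, and 3.32, 3.61, 3.65 and 3.78 with PTZ. All 4 groups were apart from each other. The 11 other diets had means from 2.49 to 3.00 and overlapped along the order. Obp51a gave almost the same profile. It read 7.57, 7.65, 7.75 and 7.91 on Normal food and 6.90 and 6.95 with Moxifloxacin Hydrochloride. It read 3.57, 3.83, 3.97 and 4.08 with Gemfibrozil, which overlapped with 3.49, 3.49, 3.84 and 3.85 with PTZ. Levetiracetam (3.13) and PTZ+Mannitol (2.98) came next and overlapped, and the other 9 diets had means from 2.21 to 2.70. Obp51a was below the lower quartile on 30 of 58 arrays and Anp on 12.

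Dup99B, the duct peptide, read 2.19, 2.37, 2.54 and 2.63 on Normal food, all 4 below the lower quartile of their array. It read 7.04 and 7.23 with Moxifloxacin Hydrochloride and 4.42, 4.59, 4.64 and 4.91 with Gemfibrozil. PTZ gave 4.02, 4.02, 4.17 and 4.21. These 3 groups did not overlap and all lay above Normal food. PTZ+Mannitol came next at 3.69 ± 0.09 (SD, n = 4), apart from its neighbours. Olmesartan Medoxonil (3.32) and Levetiracetam (3.21) followed and overlapped, then PTZ+Glucosamine Hydrochloride (2.92) stood apart. The Normal food arrays overlapped with those of the 7 other diets, whose means lay between 2.32 and 2.51.

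Without Normal food, the order of the diets for Dup99B was close to that of Ebp, EbpII, Anp and Obp51a, but not to that of EbpIII. Across the 15 group means, Pearson's r of Dup99B with EbpII was 0.511 (Spearman's rho 0.711), and across the 14 means without Normal food it was 0.948 (rho 0.943). With Anp, r was 0.544 over 15 means and 0.964 over 14, and with Obp51a it was 0.551 and 0.975. With Ebp it was 0.372 and 0.906, and with EbpIII -0.161 and -0.311. With Moxifloxacin Hydrochloride left out as well, r over 13 means was 0.960 with EbpII, 0.939 with Anp and 0.949 with Obp51a. It was 0.833 with Ebp and -0.234 with EbpIII. Anp and Obp51a had r = 0.996 with each other over 15 means. These are descriptions of group means, many of which lie at the dim end, and all genes on an array share its RNA and its normalization. Within diets the likeness was not seen: over the 58 deviations of arrays from their group mean, the highest r was 0.253 (EbpIII with Dup99B). The lowest was -0.474 (rho -0.408) for Ebp with Dup99B, an inverse relation.

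EbpIII read 11.57, 11.59, 11.60 and 11.60 on Normal food, its lowest group. It read 12.77, 12.77, 12.79 and 12.79 with Mannitol, its highest. Neither group overlapped with another diet. Below Mannitol, Olmesartan Medoxonil (12.60), PTZ+Oxaprozin (12.59), PTZ+Levetiracetam (12.58) and Quinapril Hydrochloride (12.54) overlapped along the order. PTZ+Glucosamine Hydrochloride (12.36), PTZ+Olmesartan Medoxonil (12.33), Gemfibrozil (12.32) and PTZ (12.28) formed a run of overlapping diets, and PTZ+Quinapril Hydrochloride (12.19) was apart from its neighbours. Moxifloxacin Hydrochloride (12.09), PTZ+Mannitol (12.02), Glucosamine Hydrochloride (11.91) and Levetiracetam (11.77) closed the order above Normal food, each overlapping with the next. Its range of 1.19 was reached by 2920 probe sets (15.6%). All its group means lay at or above 99.1% of probe sets, where an array can compress differences. Over the 15 group means, its r with the other 5 genes ran from -0.594 with Obp51a to -0.161 with Dup99B. The median of 8 head fat body genes was also lowest on Normal food (8.90) and highest with Mannitol (10.75). In PTZ+Levetiracetam, where EbpIII was at 12.58, that median was 8.94. A link between EbpIII and the fat body genes was not tested.

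The first question was how each single compound differed from Normal food. Compared with Normal food, Ebp, EbpII, Anp and Obp51a fell with each of the 8 single compounds. EbpIII rose with each of the 8. Dup99B rose with PTZ, Levetiracetam, Olmesartan Medoxonil, Moxifloxacin Hydrochloride and Gemfibrozil. All of these 8 comparisons share the same 4 Normal food arrays. A gene was called at an adjusted p under 0.05 in the limma fit over all probe sets. Because RMA equalizes the distribution of each array, differences are relative to all probe sets, whose median difference lay between -0.02 and 0.02 in the 8 comparisons. Where arrays lay below their lower quartile, a fitted difference has no exact size, and a lower limit was taken with each such array set at its lower quartile. In bulk RNA, fewer cells of a type and less RNA per cell cannot be told apart.

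With PTZ, Ebp, below the lower quartile on 2 of 4 PTZ arrays, fell by at least 6.37 log2 units (fitted difference -6.38 ± 0.11, SE), and EbpII fell by 5.85 ± 0.11. Anp fell by 3.83 ± 0.10 and Obp51a fell by 4.06 ± 0.11. Dup99B rose by at least 1.44 (fitted difference 1.67 ± 0.10, limma, adjusted p = 2.41e-19). EbpIII rose by 0.69 ± 0.04 (limma, adjusted p = 3.73e-21). Of the 6 genes 4 were lower and 2 higher, beside 26.4% of all probe sets lower and 23.9% higher. The median difference of the 6 genes was -3.94, beside -0.02 over all probe sets.

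With Moxifloxacin Hydrochloride, Dup99B rose by at least 4.47 log2 units (fitted difference 4.70 ± 0.13, limma, adjusted p = 1.28e-32). This exceeded its rises with PTZ (at least 1.44) and Gemfibrozil (at least 1.98). Ebp fell by 3.30 ± 0.14 and EbpII fell by 2.85 ± 0.14. Anp fell by 0.63 ± 0.13 and Obp51a fell by 0.79 ± 0.13, the smallest falls of these 2 genes among the 8 compounds. The counts were 4 lower and 2 higher of 6, beside 19.9% lower and 17.6% higher of all probe sets, and the medians were -0.71 and 0.00. This group has 2 arrays, and its SE rests on the spread pooled over all groups.

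With Gemfibrozil, Dup99B rose by at least 1.98 (fitted difference 2.21 ± 0.10). Ebp fell by 3.73, EbpII fell by 3.73, Anp fell by 3.57 and Obp51a fell by 3.86. The counts were again 4 lower and 2 higher, beside 20.8% and 25.3% of all probe sets. Levetiracetam gave 4 lower and 2 higher (beside 17.3% and 21.0%), with Dup99B up by at least 0.54 (fitted difference 0.78 ± 0.10). Olmesartan Medoxonil gave 4 lower and 2 higher (beside 24.4% and 25.7%), with Dup99B up by at least 0.65 (fitted difference 0.89 ± 0.10).

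With Glucosamine Hydrochloride, Mannitol and Quinapril Hydrochloride, the levels of all genes but EbpIII were near the dim end of the scale. In each of the 3, 4 genes were lower, EbpIII was higher and Dup99B was not called. The background was 18.9% lower and 22.4% higher for Glucosamine Hydrochloride, 25.4% and 22.9% for Mannitol, and 24.0% and 25.1% for Quinapril Hydrochloride. For Dup99B all 4 arrays of each of these diets, like the 4 of Normal food, were below the lower quartile, so no difference is given (limma, adjusted p = 0.486, 0.935 and 0.674). EbpII was below the lower quartile on all 4 arrays with Glucosamine Hydrochloride, on all 4 with Mannitol and on 1 of 4 with Quinapril Hydrochloride. Its falls were at least 7.42, 7.44 and 7.37 log2 units in that order. EbpIII rose by 0.32, 1.19 and 0.94 in the same order.

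**Figure D2:**
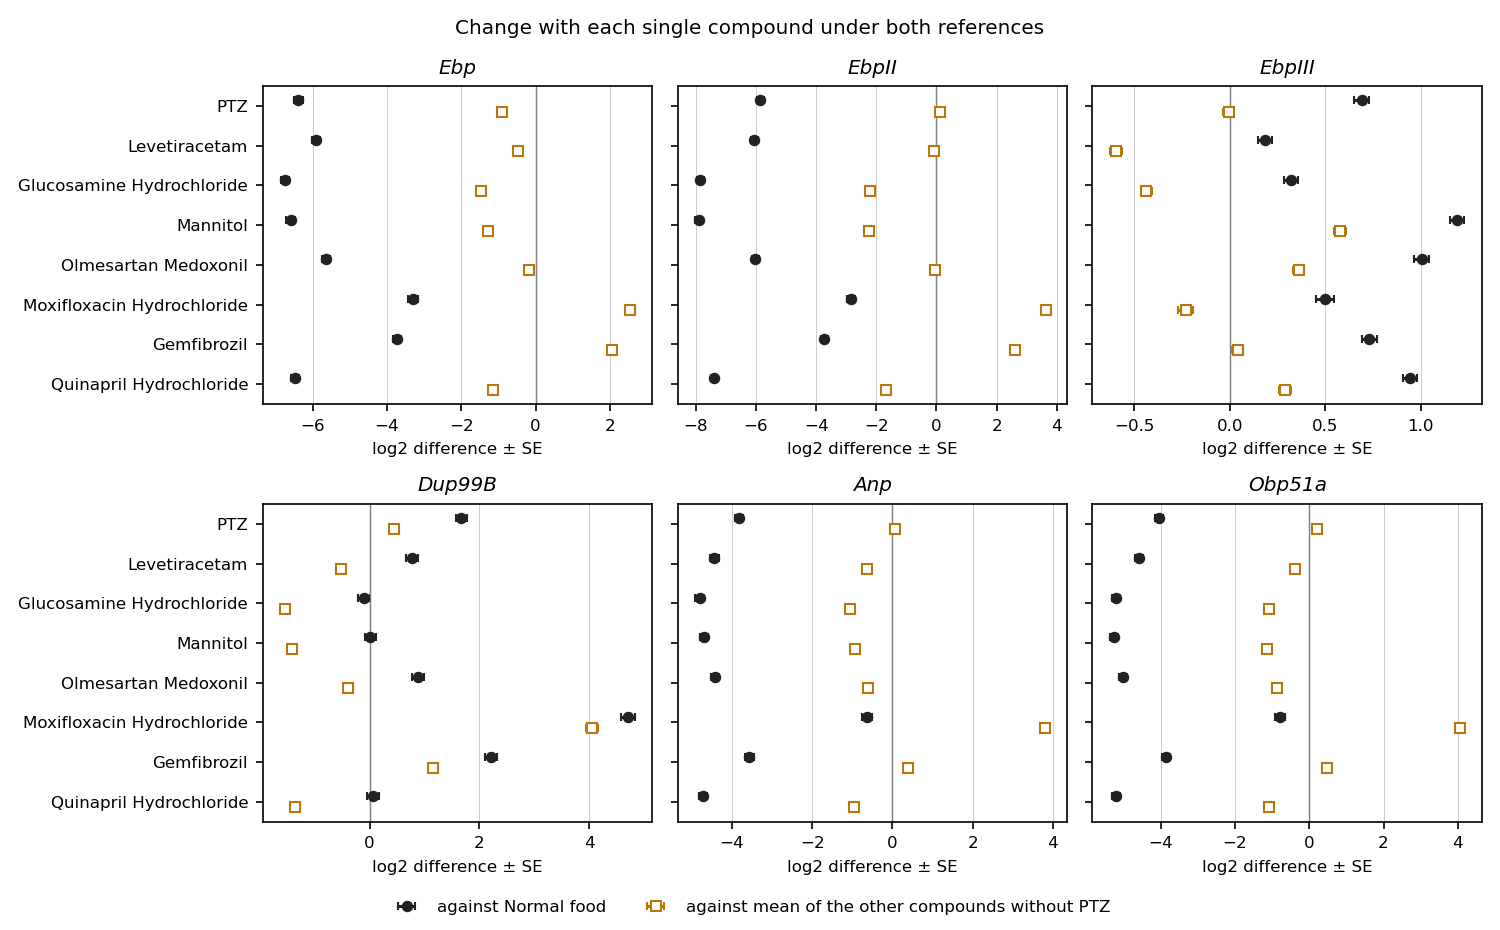
Log2 difference ± SE (horizontal axis) of each gene with each single compound (rows), against Normal food (filled circles) and against the mean of the other single compounds without PTZ (open squares). The horizontal axes differ between panels. For Anp with Moxifloxacin Hydrochloride the difference is -0.63 against Normal food and 3.81 against the other compounds.

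Directions depended on the reference. Against the mean of the 6 other single compounds without PTZ, Moxifloxacin Hydrochloride was higher by 2.54 ± 0.12 for Ebp, 3.64 ± 0.12 for EbpII, 3.81 ± 0.11 for Anp, 4.06 ± 0.11 for Obp51a and 4.06 ± 0.11 for Dup99B. Gemfibrozil was likewise higher by 2.05 ± 0.09 for Ebp, 2.62 ± 0.09 for EbpII, 0.39 ± 0.08 for Anp, 0.49 ± 0.08 for Obp51a and 1.15 ± 0.08 for Dup99B. For these 2 compounds, all 5 genes were higher with this reference, Dup99B included, whereas against Normal food Dup99B was the only one of the 5 to rise. Against the mean of all 7 single compounds without PTZ, PTZ differed by 0.12 ± 0.08 for EbpII and by 0.07 ± 0.08 for Anp, neither called (limma, adjusted p = 0.284 and 0.565), and Ebp fell by 0.90 ± 0.09.

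Arrays also differed in RNA integrity and labelling measures. The 5' minus 3' signal of the control genes, a log2 difference that lies further below 0 where more of the signal is near the 3' end, was -6.42 on Normal food, -6.21 with Moxifloxacin Hydrochloride, -6.16 with Gemfibrozil and -5.67 with PTZ. The 3 diets with the brightest Ebp thus had the lowest values. The bioB spike control had an upper level on 20 arrays, which included all arrays of Moxifloxacin Hydrochloride, Gemfibrozil, Mannitol, PTZ+Glucosamine Hydrochloride and PTZ+Mannitol, and a lower level on 38, which included all of Normal food and PTZ. Normal food and PTZ were at 1 level, while Normal food and Moxifloxacin Hydrochloride shared none, so their difference has no value within a level. With a term for bioB level in the fit, which rests on Olmesartan Medoxonil and Quinapril Hydrochloride as the diets with arrays at both levels, every call of the 6 genes was as before. With the 5' minus 3' signal as a covariate, the calls of the 6 genes in these 8 comparisons were as before.

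The second question was whether adding a drug to PTZ altered the levels seen with PTZ alone. All 6 combinations share the 4 PTZ arrays. Dup99B, Anp and Obp51a fell in each of the 6. EbpII fell in 5, and in PTZ+Mannitol it differed by -0.27 ± 0.11 (limma, adjusted p = 0.0529). Dup99B, which PTZ had at 4.10 ± 0.10 (SD, n = 4), fell by 0.42 ± 0.10 with Mannitol, the smallest fall, and fell by 1.19 ± 0.10 with Glucosamine Hydrochloride. In the other 4 combinations 3 or 4 of its 4 arrays were below the lower quartile, so its falls there have no order. In these 4 combinations EbpII and Obp51a were below it on all 4 arrays, and Anp on 2 or 3. Obp51a was also below it on 3 arrays of PTZ+Glucosamine Hydrochloride. Those falls have no exact size. Ebp was below it on 2 of the 4 PTZ arrays, so its differences from PTZ have no exact size either.

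PTZ+Levetiracetam had 5 genes lower and EbpIII higher by 0.30 ± 0.04, beside 20.0% of all probe sets lower and 18.4% higher. The fitted falls were 2.11 for EbpII and 1.37 for Obp51a, both below the lower quartile on all 4 PTZ+Levetiracetam arrays. The fitted fall of Ebp was 0.31 ± 0.11, with 2 of 4 PTZ arrays and 3 of 4 PTZ+Levetiracetam arrays below the lower quartile. Its call was lost without PTZ replicate 2, PTZ replicate 4 or PTZ+Levetiracetam replicate 3. The 5' minus 3' signal was -4.14 in PTZ+Levetiracetam, -4.73 in PTZ+Oxaprozin and between -6.42 and -5.50 in the 13 other diets. With this signal as a covariate, the calls of Ebp (limma, adjusted p = 0.502) and Anp (0.102) were lost and 3 genes were lower. The Ebp difference was then -0.33 ± 0.29, so its size did not shrink but its SE grew. That of Anp went from -0.98 ± 0.10 to -0.61 ± 0.26.

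PTZ+Olmesartan Medoxonil had 5 genes lower and 0 higher, beside 14.9% and 15.5%, and EbpIII was not called at 0.05 ± 0.04 (limma, adjusted p = 0.339). For Ebp all 4 PTZ+Olmesartan Medoxonil arrays were below the lower quartile. The call of its fitted fall of 0.37 was lost without PTZ replicate 2, PTZ replicate 4 or PTZ+Olmesartan Medoxonil replicate 4 (limma, adjusted p = 0.0561, 0.0619 and 0.0788). PTZ+Glucosamine Hydrochloride had 4 lower and 0 higher, beside 12.4% and 11.7%. PTZ+Quinapril Hydrochloride had 4 lower and 0 higher, beside 11.6% and 9.82%. In both, Ebp and EbpIII were the genes not called.

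PTZ+Oxaprozin had 4 lower and EbpIII higher, beside 17.8% and 17.8%. Its difference of -0.22 in Ebp was not called (limma, adjusted p = 0.137) but was with PTZ+Oxaprozin replicate 3 left out, at -0.36 (0.00911). PTZ+Mannitol was the combination in which Ebp rose, by 0.90 ± 0.11, with 4 genes lower and 1 higher beside 18.8% and 14.7%. There EbpIII fell by 0.26 ± 0.04. The difference in EbpII of -0.27 with PTZ+Mannitol was called when PTZ replicate 1, PTZ replicate 3, PTZ+Mannitol replicate 1 or PTZ+Mannitol replicate 2 was left out, with adjusted p from 0.0212 to 0.0459.

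The third question was what PTZ did when the other drug was already in the diet. In Olmesartan Medoxonil diets, all 6 genes were called lower with PTZ, beside 15.2% of all probe sets lower and 13.3% higher. With PTZ, Ebp, EbpII, Dup99B and Obp51a were below the lower quartile on all 4 arrays there and Anp on 2. The fitted falls of these genes therefore have no exact size. Obp51a, with a mean of 2.70, was also below it on 1 of 4 arrays without PTZ, so its fall could hardly be read. EbpII fell by 1.95 and Ebp fell by 1.10, while Obp51a fell by 0.33 ± 0.11, a call lost without Olmesartan Medoxonil replicate 1 (limma, adjusted p = 0.0645). In Levetiracetam diets, 5 genes fell and EbpIII rose by 0.81 ± 0.04, beside 27.9% and 22.7%. The fitted fall of EbpII was 1.91 there. With PTZ, EbpII and Obp51a were below the lower quartile on all 4 arrays, Ebp and Dup99B on 3 and Anp on 2. These falls have no exact size. With the 5' minus 3' signal as a covariate, the calls of Ebp, Anp and Obp51a in Levetiracetam diets were lost, which left 2 lower. Ebp went from -0.79 ± 0.11 to -0.82 ± 0.32, so its SE grew and its size did not shrink. Anp went from -0.37 ± 0.10 to 0.03 ± 0.28 and Obp51a from -0.83 ± 0.11 to -0.67 ± 0.30.

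In Mannitol diets most of the genes were higher with PTZ. Without PTZ, EbpII, Dup99B and Obp51a were below the lower quartile on all 4 arrays and Ebp on 2. For these genes a rise could be read there but hardly a fall, and the rises have no exact size. The fitted rises were 1.11 for Ebp, 1.78 for EbpII, 1.24 ± 0.10 for Dup99B and 0.51 for Obp51a. EbpIII fell by 0.76 ± 0.04. The counts were 1 lower and 4 higher, beside 22.0% and 21.1%. In Glucosamine Hydrochloride diets 0 genes fell and 3 rose, beside 15.9% and 15.2%: EbpII rose by 0.71, EbpIII by 0.45 and Dup99B by 0.59. Without PTZ, EbpII and Dup99B were below the lower quartile on all 4 arrays there, so their rises have no exact size. Ebp was also below it on all 4 and Obp51a on 3, so a fall of these genes could hardly be read. In Quinapril Hydrochloride diets 2 genes were called lower with PTZ and 0 higher, beside 20.2% and 20.3%. EbpIII fell by 0.34, and the fitted fall of EbpII was 0.43. EbpII was below the lower quartile on 1 of 4 arrays without PTZ and on all 4 with PTZ, so the size of its fall cannot be read.

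**Figure D3:**
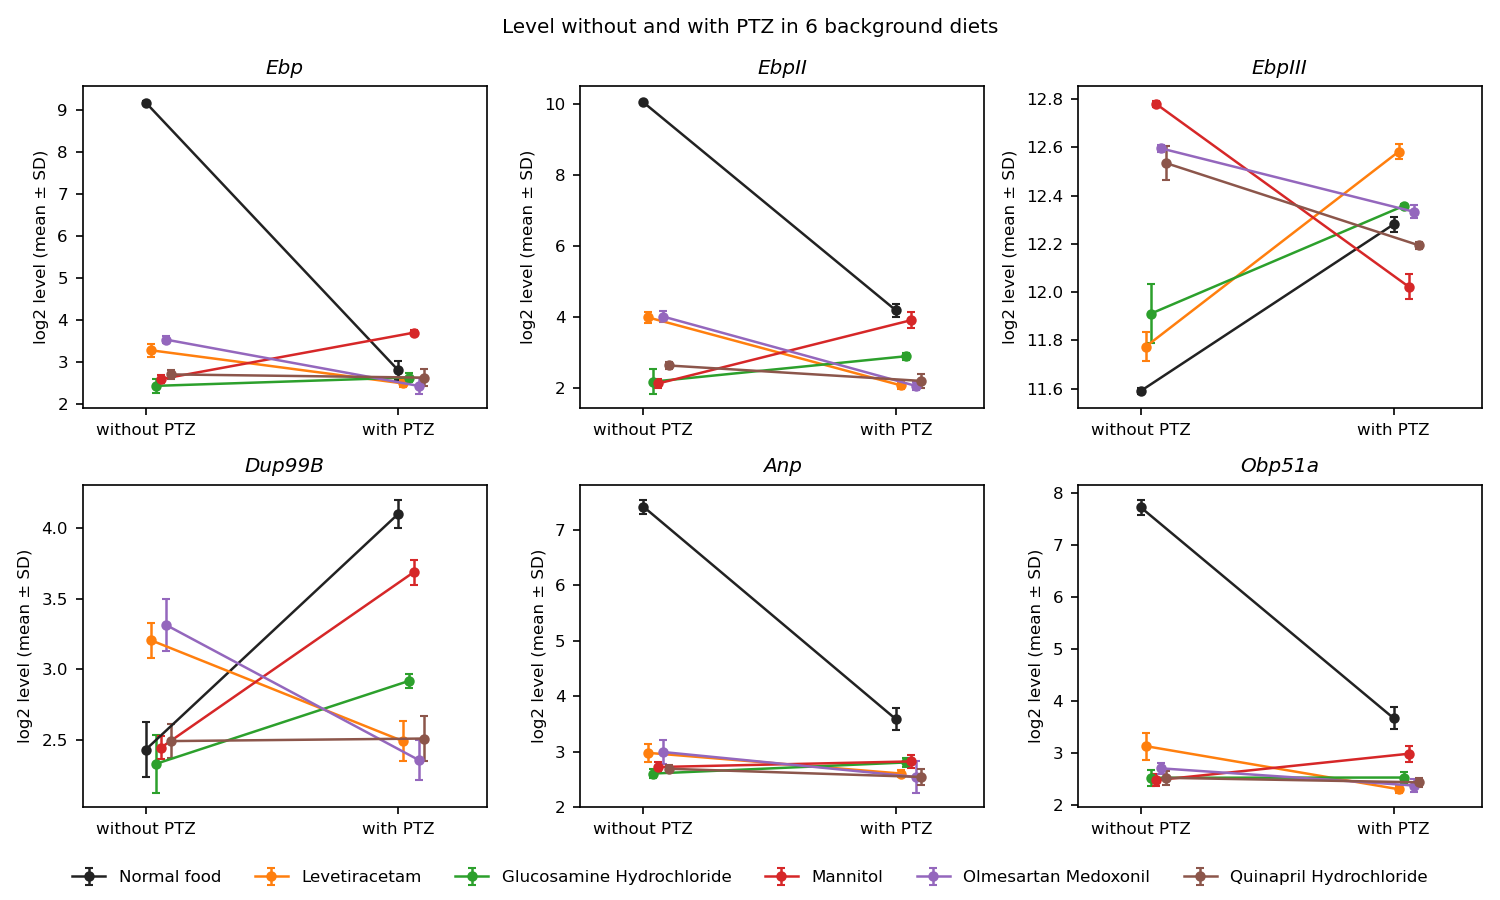
Group mean ± SD of the log2 level (vertical axis, scaled per panel) without PTZ and with PTZ, for Normal food and the 5 drugs given both ways (n = 4 arrays per point). Ebp falls from 9.17 to 2.79 on Normal food and rises from 2.58 to 3.69 in Mannitol diets.

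The PTZ difference in each drug's diets was tested against the PTZ difference on Normal food. Without PTZ, the means of Ebp, EbpII, Anp and Obp51a in the 5 drugs' diets lay between 2.13 and 4.01, and on Normal food between 7.42 and 10.03, so a fall as large as that on Normal food could not be read there and a difference for these 4 genes follows from their height on Normal food. Dup99B was at the dim end on Normal food, so there only a rise could be read. With these limits, the PTZ difference of Ebp, EbpII, Anp, Obp51a and Dup99B was called as different for each of the 5 drugs. For EbpIII, which was bright in every diet, it differed for 4, and with Levetiracetam the difference was 0.12 ± 0.05 (limma, adjusted p = 0.0914). Of the 6 genes, 5 were called with Levetiracetam and 6 with each other drug. The share of all probe sets called in either direction was 35.7% for Levetiracetam, 36.5% for Glucosamine Hydrochloride, 44.0% for Mannitol, 46.5% for Olmesartan Medoxonil and 42.3% for Quinapril Hydrochloride. For Dup99B with Mannitol, the difference of -0.43 ± 0.15 was lost without Normal food replicate 3 (-0.35, limma, adjusted p = 0.0556).

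With the 6 diets taken as pairs of group means, 0 of the 6 genes were called for PTZ. The background was 1.77% lower and 1.18% higher of all probe sets. At an unadjusted p under 0.05 the count was also 0, with unadjusted p from 0.178 to 0.663. The mean difference was -1.17 ± 0.88 (SE, n = 6 pairs) for Ebp, -1.28 ± 0.88 for EbpII, -0.75 ± 0.51 for Anp and -0.80 ± 0.55 for Obp51a. It was 0.31 ± 0.35 for Dup99B and 0.10 ± 0.21 for EbpIII. Without the Normal food pair, 5 pairs gave -0.13 ± 0.30 for Ebp and -0.36 ± 0.56 for EbpII, and again 0 genes were called.

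Other genes known from the same organs had other profiles. Of 5 listed, 4 were measured, and the 3 with the widest ranges of group means are given. Obp56g, an odorant-binding protein gene, was lowest on Normal food at 11.36 ± 0.03 (SD, n = 4) and highest in PTZ+Mannitol at 12.88 ± 0.01 (SD, n = 4). Gld, glucose dehydrogenase, lay between 7.66 and 8.29 in all 15 groups. Elo68alpha, a fatty acid elongase, lay between 2.27 and 2.76, near the lower quartile. The 3 other chemosensory protein genes measured beside EbpIII had different orders. Phk-3 was lowest on Normal food (7.47) and highest with Olmesartan Medoxonil (8.86). The gene a10 was lowest in PTZ+Glucosamine Hydrochloride (4.00) and highest with Olmesartan Medoxonil (6.75), and CG30172 was highest in PTZ+Mannitol (11.06).

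By list median, genes of the accessory gland, which makes most seminal proteins, and of the testis were highest on Normal food, like Ebp, EbpII, Anp and Obp51a. Moxifloxacin Hydrochloride came next for both lists. Levetiracetam lay above Gemfibrozil for both, the reverse of the 4 genes. On most other diets the medians were near the lower quartile of the arrays, so likeness there cannot be told from shared dimness. The part of accessory gland and testis genes in these results was not tested. The median of 29 accessory gland genes was 4.55 on Normal food, 4.44 with Moxifloxacin Hydrochloride, 4.04 with Levetiracetam and 3.25 with Gemfibrozil. It was 3.04 with PTZ and from 2.60 to 2.90 in the 10 other diets. Against Normal food, 22 of the 29 fell and 0 rose with PTZ (26.4% and 23.9% of all probe sets). With Moxifloxacin Hydrochloride 16 fell and 3 rose (19.9% and 17.6%), and with Mannitol 27 fell and 0 rose (25.4% and 22.9%). The median of 37 testis genes was 3.94 on Normal food, 3.31 with Moxifloxacin Hydrochloride, 3.19 with Levetiracetam and 3.09 with Gemfibrozil, and from 2.68 to 2.94 elsewhere. Of the testis genes, 24 of 37 fell and 1 rose with PTZ, beside the same 26.4% and 23.9%. A list of 13 gut enzyme genes had a median of 4.89 on Normal food, 3.57 with Moxifloxacin Hydrochloride and from 2.91 to 3.34 elsewhere. Between 9 and 11 of these 13 fell with each single compound, beside 17.3% to 26.4% of all probe sets.

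With Levetiracetam, 17 of the 29 accessory gland genes were lower than on Normal food and 0 higher, with a median difference of -0.49, beside 17.3% of all probe sets lower and 21.0% higher. The accessory gland genes with the widest ranges stayed bright there. Acp98AB, an accessory gland gene, was at 10.22 ± 0.09 (SD, n = 4) on Normal food and 9.37 ± 0.12 (SD, n = 4) with Levetiracetam. SP, the sex peptide, was at 8.38 ± 0.20 (SD, n = 4) and 7.47 ± 0.10 (SD, n = 4). The log2 differences of Levetiracetam from Normal food were -5.90 for Ebp, -6.05 for EbpII, -4.44 for Anp and -4.59 for Obp51a, while Dup99B and EbpIII were higher than on Normal food. With Gemfibrozil, Acp98AB was at 7.38 and SP at 5.44, both below their Levetiracetam level, while Ebp and EbpII were above theirs. In PTZ+Mannitol, Acp98AB was at 6.42, and with PTZ at 4.97. Among testis genes, ocn was at 6.90 on Normal food, 4.76 with Levetiracetam, 4.60 with Moxifloxacin Hydrochloride and 2.64 with Gemfibrozil.

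**Figure D4:**
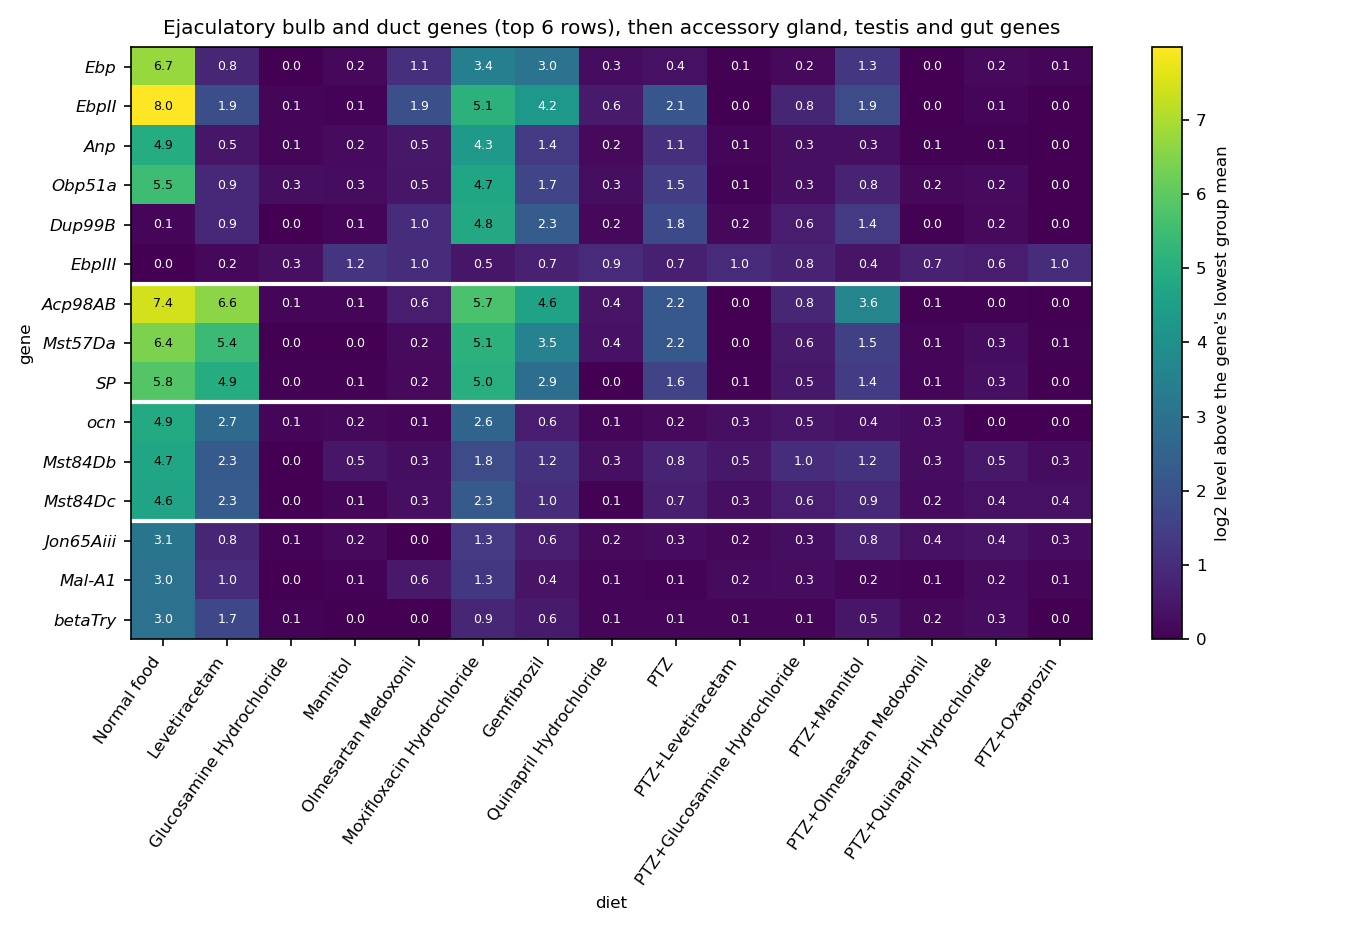
Group mean of each gene (rows) minus its lowest group mean, in log2 units (colour and printed value), for the 15 diets (columns). White lines part the 6 bulb and duct genes from 3 accessory gland, 3 testis and 3 gut genes. The Levetiracetam column is bright for Acp98AB (mean 9.37) and dark for Ebp (mean 3.27).

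The genes whose 15 group means were most like those of each gene were ranked by Pearson's r among 3360 genes with a range of group means of at least 1. For Anp the first were CG17242 (r = 0.991), CG43101 (0.988) and CG5402 (0.986). For Obp51a they were the same 3, CG17242 (0.988), CG5402 (0.985) and CG43101 (0.978). CG43101 is the gene next to Obp51a in the RefSeq gene table, and the annotated spans of the pair do not overlap. For Ebp they were Muc11A (0.970), CG31198 (0.949) and Acbp5 (0.948), and for EbpII Muc11A (0.943), exu (0.926) and Acbp5 (0.921). For Dup99B the values were lower, with CG31077 (0.842), CG14125 (0.825) and CG3906 (0.813), and all 3 were highest with Moxifloxacin Hydrochloride. For EbpIII they were LManII (0.973), CG17919 (0.967) and Jhbp3 (0.964), each lowest on Normal food and highest with Mannitol. Over the 14 means without Normal food, the first-named gene had r = 0.985 for Anp, 0.978 for Obp51a, 0.905 for Ebp, 0.889 for EbpII, 0.961 for EbpIII and 0.843 for Dup99B.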

How the data were processed

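Head RNA (250 ng) of male flies was labelled by 3' in vitro transcription and hybridised to Affymetrix Drosophila Genome 2.0 arrays, per the labels' protocols. The deposited table holds log2 values. Per the submitters' processing notes the authors used RMA and limma, and no version is stated. RMA corrects background, equalizes the distributions of the arrays and combines the probes of a set, so shifts shared by most probe sets are removed and dim probe sets carry compressed differences. Of 18952 probe sets 183 controls were left out; of the other 18769, 13647 had 1 gene symbol, 402 several and 4720 none, and 13544 were matched to RefSeq for current symbols. No sequence is printed.

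Groups came from the labels. One limma fit (3.58.1, R 4.3.3) over 58 arrays gave a mean per diet, moderated by empirical Bayes (43 residual degrees of freedom, 3.88 prior), and p-values were adjusted by Benjamini-Hochberg within each of 25 comparisons; calls are at an adjusted p under 0.05. The fit was tested on simulated data. The genes and lists were chosen with earlier results of these data known. By rule, the text names the 6 genes, up to 3 genes per list with the widest range of the 15 group means, and the genes whose group means correlate best with a member (3 each) or with the mean of the 6 (10). Arrays of the same replicate number did not deviate together (r from -0.190 to 0.267, median 0.000234, over 392 pairs). Alternatives were a variance trend, a second quantile normalization, no dim probe sets, only the groups compared, a replicate block, 5'/3' and bioB terms, a mean of probe sets, another reference and each array left out. Figures were drawn with matplotlib.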

Additional observations from a re-analysis of the deposited data

Results flagged for a closer look

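The level of Ebp in PTZ+Olmesartan Medoxonil replicate 4, at 2.15, lay far below the nearest of the other 3 arrays, at 2.49. The level of Obp51a in PTZ+Olmesartan Medoxonil replicate 3, at 2.54, lay far above the nearest of the other 3, at 2.32. These were 2 of 84 sets of 4 arrays tested with Dixon's criterion, and chance flags about 1 in 20. All of these values lie below the lower quartile of their array.

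The PTZ difference in a drug's diets minus that on Normal food (log2, limma) was past the threshold for 29 of 30 gene and drug pairs. Without PTZ, Ebp, EbpII, Anp and Obp51a already had means between 2.13 and 4.01 in the drug diets, so their values largely restate their height on Normal food. These differences share the Normal food and PTZ arrays. For Ebp it was 5.59 with Levetiracetam, 6.58 with Glucosamine Hydrochloride, 7.49 with Mannitol, 5.28 with Olmesartan Medoxonil and 6.30 with Quinapril Hydrochloride. For EbpII the values in the same order were 3.94, 6.57, 7.63, 3.90 and 5.42. For Anp they were 3.46, 4.03, 3.93, 3.38 and 3.69. For Obp51a they were 3.23, 4.06, 4.56, 3.73 and 3.97. All 20 values of these 4 genes are positive, since their fall on Normal food was larger than any difference in the drug diets. Dup99B went the other way, at -2.39, -1.09, -0.43, -2.63 and -1.66. All 4 of its Normal food arrays were below the lower quartile, so these values have no exact size. It was also below it on all 4 arrays with Quinapril Hydrochloride and on 3 with PTZ+Quinapril Hydrochloride. There the value largely restates the rise with PTZ against Normal food. EbpIII was at -0.24 with Glucosamine Hydrochloride, -1.45 with Mannitol, -0.95 with Olmesartan Medoxonil and -1.03 with Quinapril Hydrochloride.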

How the results depend on the processing

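The dim end of the scale limits Ebp, EbpII, Dup99B, Anp and Obp51a, since differences there are compressed and 12 to 30 of 58 arrays lay below the lower quartile. Replicate numbers did not pair arrays, and with a replicate block all 144 calls were as before (EbpII with PTZ against Normal food -5.85). A second quantile normalization changed 0 of 150 calls and a bioB term 0 of 144. A variance trend changed 3, only the groups compared 2, and each array left out 13 of 1668. A mean of probe sets changed 1. Each of the 6 genes has 1 probe set, so that setting could change the shared spread and the p adjustment but not their levels. Wherever results below differ, the cause was not tested unless stated. Leaving out the dimmest 40% of probe sets removes Dup99B, so by construction the genes higher against Normal food fell from 2 to 1 with PTZ, Levetiracetam, Olmesartan Medoxonil, Moxifloxacin Hydrochloride and Gemfibrozil, and the genes with a lower PTZ difference than on Normal food from 1 to 0 with Levetiracetam and from 2 to 1 with the other 4 drugs. With the 5' minus 3' covariate, the genes called lower were 3, not 5, for PTZ+Levetiracetam against PTZ, and 2, not 5, for PTZ+Levetiracetam against Levetiracetam, where Anp turned to 0.031. With Mannitol, the genes with a lower PTZ difference were 1, not 2, and leaving out single arrays gave 1 to 2.

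The reference mattered most. Against the mean of the other single compounds in place of Normal food, PTZ differed by 0.12 for EbpII, -0.0058 for EbpIII, 0.065 for Anp and 0.22 for Obp51a, and genes called lower went from 4 to 1. Levetiracetam turned to -0.60 for EbpIII and -0.52 for Dup99B (higher 2 to 0), and Glucosamine Hydrochloride to -0.44 for EbpIII (higher 1 to 0). Dup99B turned to -1.41 with Mannitol, -0.39 with Olmesartan Medoxonil (higher 2 to 1) and -1.35 with Quinapril Hydrochloride. Moxifloxacin Hydrochloride turned to 2.54 for Ebp, 3.64 for EbpII, -0.23 for EbpIII, 3.81 for Anp and 4.06 for Obp51a (lower 4 to 1, higher 2 to 5). Gemfibrozil turned to 2.05, 2.62, 0.39 and 0.49 for Ebp, EbpII, Anp and Obp51a (lower 4 to 0, higher 2 to 5). Against the mean of the other combinations in place of PTZ, PTZ+Glucosamine Hydrochloride turned to 0.43 for EbpII, 0.24 for Dup99B, 0.20 for Anp and 0.065 for Obp51a (lower 4 to 0, higher 0 to 3). PTZ+Mannitol turned to 1.65, 1.17, 0.23 and 0.61 for the same genes (lower 4 to 1, higher 1 to 5), and PTZ+Olmesartan Medoxonil had 3 genes lower, not 5.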

Other observations

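Among the 10 genes whose 15 group means correlated best with the mean of the 6 genes, CG43101 came first (r = 0.959) and Spn77Bc, a serpin family gene, second (0.954). CG17242, CG5402, exu, Acbp5, CG14645, Muc11A, MtnC and CG5399 followed, down to r = 0.920. MtnC, a metallothionein, was at 6.50 on Normal food, 5.67 with Moxifloxacin Hydrochloride and 2.47 with PTZ. CG14645 was the gene among these 10 with its highest group mean on Moxifloxacin Hydrochloride (11.03) and not on Normal food (8.54); it was at 5.63 with Gemfibrozil and 3.27 with PTZ.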
